A study of Mus musculus with 14 samples.

Results

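The 10 genes described here encode cytosolic heat shock chaperones and their closest cochaperones: Hspa1a, Hspa1b, Hspa8, Hsp90aa1, Hsp90ab1, Hsph1, Dnaja1, Dnajb1, Hspb1 and Bag3. They were taken by name, as the rows of the 2 deposited count tables whose Ensembl identifiers carry these symbols, and all 10 of the 49671 genes per table were found. RNA came from 14 libraries of 1000 satellite cells each, the stem cells of skeletal muscle, which were sorted from C57BL/6J mice. The muscles (hind-limbs, pectoral and triceps) were at rest, and the sort kept cells with integrin B1 and CXCR4 on the surface and without Sca1, Ter119, CD11b, CD31 or CD45. In the first dataset, from mice of 4 months, cells were split by a GFP reporter of Fos, a transcription factor gene, into 4 libraries labelled FosGFP+ and 4 FosGFP- libraries. The second held 3 libraries labelled FoscKO, a label for a conditional deletion of Fos, and 3 labelled Control, from mice of 6 months. For FoscKO and Control alike, the text of the series names FosGFP+ in the gate. The reporter construct, the Cre driver, the deleted exons and the alleles of the Control mice are not given in the sources used here. The text of the series gives 4 mice for FosGFP+ and FosGFP- and 3 for FoscKO and Control. These numbers equal those of the libraries per group, but the mouse behind each library is not given. The p-values therefore measure the spread between these libraries, which may be technical.

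Heat shock chaperones hold unfolded proteins, keep them from aggregating and help them to fold. HSP70 proteins bind short hydrophobic stretches in a cycle driven by ATP, J-domain proteins such as DNAJB1 bring substrate and start ATP hydrolysis, and HSP110 and BAG proteins release the nucleotide. HSP90 completes the folding of kinases and steroid receptors, and small heat shock proteins such as HSPB1 hold unfolded substrate without ATP. Under proteotoxic stress the transcription factor HSF1 binds heat shock elements, repeats of the letters GAA and TTC in alternating orientation, and raises the inducible members strongly. Heat shock and immediate early genes are also known to be induced while satellite cells are released from muscle by enzymes.

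The stretches before the start sites of 4 members are shown because the largest differences below fell on Hspa1a, Hspa1b and Dnajb1. Hspb1 serves beside them as a member with more heat shock elements in its stretch than any of them. Each line gives the 250 bases before the start site, 5′ to 3′ on the gene's strand, from RefSeq on GRCm38.p6. Capitals mark each pair of adjoining heat shock units, searched on both strands as GAANNTTC and as TTCNNGAA, where N is any base.
Hspa1a: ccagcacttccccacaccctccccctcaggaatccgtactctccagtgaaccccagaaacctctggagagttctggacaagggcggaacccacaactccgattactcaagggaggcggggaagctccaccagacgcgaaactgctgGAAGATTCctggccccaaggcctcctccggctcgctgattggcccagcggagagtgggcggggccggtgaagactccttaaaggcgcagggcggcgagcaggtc
Hspa1b: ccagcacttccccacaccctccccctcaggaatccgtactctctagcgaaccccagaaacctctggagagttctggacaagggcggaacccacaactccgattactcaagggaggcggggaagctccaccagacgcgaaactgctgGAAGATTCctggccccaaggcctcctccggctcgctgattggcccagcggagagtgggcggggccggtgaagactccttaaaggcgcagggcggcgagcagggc
Dnajb1: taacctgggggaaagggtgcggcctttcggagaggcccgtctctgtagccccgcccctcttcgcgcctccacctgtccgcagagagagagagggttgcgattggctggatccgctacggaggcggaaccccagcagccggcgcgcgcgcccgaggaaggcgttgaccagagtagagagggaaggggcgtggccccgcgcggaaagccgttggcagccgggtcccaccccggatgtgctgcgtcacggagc
Hspb1: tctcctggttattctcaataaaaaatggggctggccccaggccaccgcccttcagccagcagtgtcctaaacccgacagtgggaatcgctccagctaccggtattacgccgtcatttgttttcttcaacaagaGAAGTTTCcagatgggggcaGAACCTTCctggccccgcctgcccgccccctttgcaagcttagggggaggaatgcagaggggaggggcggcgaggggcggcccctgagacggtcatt
These stretches lie at chr17:34972157-34972406 (minus strand), chr17:34959239-34959488 (minus strand), chr8:83607925-83608174 (plus strand) and chr5:135887669-135887918 (plus strand).

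Hspa1a and Hspa1b, neighbouring intronless genes for the stress-inducible HSP70, shared 247 of the 250 bases before their starts and the same pair of heat shock units at positions -104 to -97, counted back from the start site. Hspb1 had 2 such pairs, at -117 to -110 and -97 to -90, and Dnajb1 had none in this window. RefSeq windows of 300 bases (250 before to 50 after the start) were found for 7 of the 10 members. Pairs were also found in a window of Dnaja1 (-124 to -117), of Bag3 (after the start) and of Hsph1 (before and after the start). Of the members with a window, only Dnajb1 had no pair. GAANNTTC occurred in 7.86% and TTCNNGAA in 8.52% of all 32851 windows. The longer run GAANNTTCNNGAA, which was in 0.603% of windows and contains GAANNTTC, was found in the window of 1 member, Hsph1, just after the start, where it read TTCTGGAAAGTTC on the gene's strand. A site of the kind bound by FOS and its partners (AP-1, searched as TGANTCA on both strands) was found for Bag3, as TGACTCA at -20 to -14, and was in 7.81% of all windows. These matches are letters in a window and no measure of binding.

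Fos, the gene that the reporter and the deletion concern, was measured first as a check of the labels. Libraries labelled FosGFP+ held 5243, 5398, 3098 and 4606 CPM of Fos (counts per 1000000 after TMM scaling, replicates 1 to 4), and those labelled FosGFP- held 12883, 11592, 7908 and 11302 CPM. Fos mRNA was thus lower in every library labelled FosGFP+ than in any labelled FosGFP- (log2 fold change -1.25 ± 0.21 SE, adjusted p = 9.33e-04, edgeR quasi-likelihood test, n = 4 per group), against the direction of the reporter's name. It was 8443, 2876 and 3804 CPM in FoscKO and 5044, 5025 and 4733 CPM in Control (0.03 ± 0.39), with 1 FoscKO library above all Control libraries and 2 below. The counts cover the whole gene, so reads from exons outside the deleted stretch would be counted. Directions below are therefore those of the libraries as labelled.

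The libraries held 3806776 to 5983711 counts in genes in FosGFP+, 2652230 to 4067543 in FosGFP-, 4797954 to 10241655 in FoscKO and 5326686 to 6930696 in Control, and no member had fewer than 1493 counts in any library. The share of reads in genes was 17.02% to 23.24% in FosGFP+ against 10.3% to 14.1% in FosGFP-, and the deepest library, FoscKO replicate 1, stood apart with 30.18%. All 9 markers of satellite cells were detected in each group. Their summed level was 7463 to 11135 CPM in FosGFP+, 3979 to 6275 in FosGFP-, 5488 to 9693 in FoscKO and 5256 to 7270 in Control. In FosGFP+ this sum was carried by Sdc4 (5416 against 2069 CPM), Vcam1 (1940 against 842 CPM) and Chrdl2 (1012 against 624 CPM), which were called higher, while Pax7 (log2 fold change -0.44), Calcr (-0.51) and Cdh15 (-0.088) had values below 0 and were not called. Summed markers of endothelium (6 genes) stayed at or below 245 CPM and those of leukocytes (6 genes) at or below 130 CPM, and the 3 erythroid genes at or below 5.01 CPM, with Hba-a1 at 0 in FosGFP+, FoscKO and Control. Markers of fibro-adipogenic progenitors (4 genes) summed to 290 to 781 CPM in FosGFP+ and 452 to 869 CPM in FosGFP-, and those of smooth muscle and pericytes (5 genes) to 167 to 290 CPM and 137 to 419 CPM. Of the latter Cspg4 was called lower in FosGFP+, at 13.8 against 31.5 CPM (log2 fold change -1.19, adjusted p = 0.0214, edgeR quasi-likelihood test). In FosGFP+ against FosGFP-, the progenitor sum was carried by Cd34 (287 against 363 CPM) and Dcn (175 against 336 CPM). Pdgfra stood at 15.1 against 26.7 CPM and Ly6a at 0.94 against 0.78 CPM. Most of the endothelial sum was Tek (115 against 119 CPM). The part of these markers in the results was not tested.

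Together the members took 1.71% to 3.40% of all gene counts in FosGFP+ libraries and 4.43% to 6.66% in FosGFP-, 4.16% to 4.63% in FoscKO and 3.09% to 4.29% in Control. A share of all gene counts is the same as scaling by total counts. It was lower in each FosGFP+ library than in each FosGFP- library, whereas the ranges of FoscKO and Control overlapped. Levels of different genes are compared below per kilobase of transcript, and they rest on reads that align to a single place. The share of a gene's 50-base stretches that also occur in other genes was 66.3% for Hspa1a, 50.1% for Hspb1, 39.4% for Hspa8, 0.412% for Dnajb1 and 0% for Hsph1, so the levels and the ratios between genes can be lowered to unequal degrees. Hspa1b led in FosGFP- with 6087 ± 1268 CPM per kb (SD, n = 4), followed by Dnajb1 (3097 ± 730), Hspa1a (2995 ± 655) and Hsp90ab1 (2246 ± 232). In FosGFP+ the order began with Hsp90ab1 (2546 ± 653 CPM per kb), then Hspa1b (1972 ± 878), Dnajb1 (1577 ± 635) and Hspb1 (1240 ± 307), and Hspa1a stood seventh (799 ± 324). In all 4 groups Bag3, Hsp90aa1 and Dnaja1 closed the order, Dnaja1 with 80.0 to 148 CPM per kb as the means of the groups. In FosGFP+ the ranges of every pair of neighbours in this order overlapped between libraries. Within every single FosGFP+ library, however, Hsp90ab1 stood above Hspa1b, Hspa1b above Dnajb1, Hsph1 above Hspa8 and Hspa1a above Bag3. Bag3 stood above Hsp90aa1 and Hsp90aa1 above Dnaja1 in the same way. The other neighbours changed order between libraries: Dnajb1 and Hspb1, Hspb1 and Hsph1, and Hspa8 and Hspa1a. In FosGFP- the steps from Hspa1b to Dnajb1, from Hsp90ab1 to Hspb1, from Hspb1 to Hsph1 and from Hsp90aa1 to Dnaja1 were free of overlap. In Control, Hspa1b led with 3087 ± 640 CPM per kb (SD, n = 3), above Dnajb1 (2288 ± 213) without overlap, and in FoscKO it led with 4410 ± 841, overlapping Dnajb1 (3450 ± 1154).

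**Figure D1:**
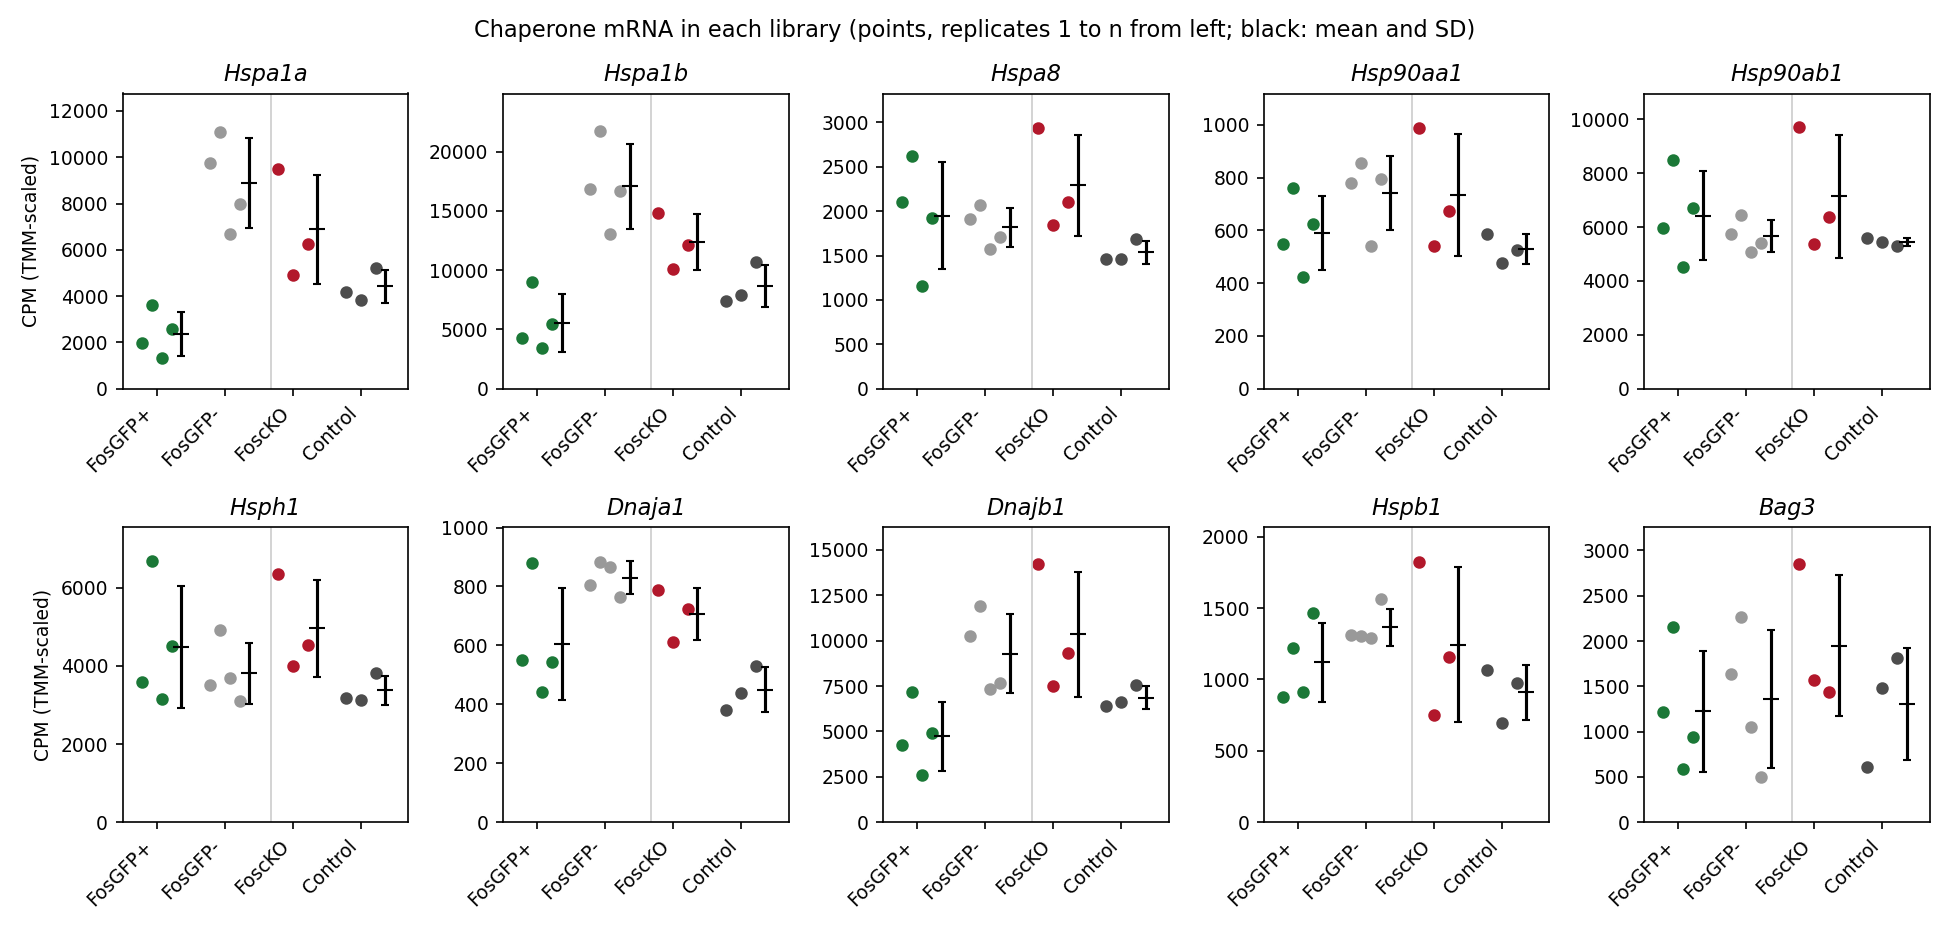
Level of each chaperone mRNA in CPM (vertical axis, linear from 0, each panel with its own range) in the 14 libraries by group, with points for libraries and black marks for the mean and SD. The panels of Hspa1a, Hspa1b and Dnajb1 show every FosGFP+ library below every FosGFP- library, and the FoscKO library that is highest in each panel is replicate 1.

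The comparison of FosGFP+ with FosGFP- asked how chaperone mRNA differs between satellite cells sorted by the Fos reporter. The inducible HSP70 genes and their partner Dnajb1 were lower in FosGFP+ libraries, and the other 7 members did not pass the test with TMM scaling over all genes. Thus 3 of 10 members were called lower and 0 higher at an adjusted p under 0.05, where 1.85% of the 20698 genes tested were called lower and 10.3% higher. The members' median log2 fold change was -0.31, beside -0.18 over all genes tested and 0.57 over the 4002 genes with a mean of at least 50 CPM, the range of abundance in which all members lie. In those 4002 genes 41.9% were called higher and 1.02% lower. For the same 3 members every FosGFP+ library lay below every FosGFP- library, as it did for 6.45% of all genes tested. In these bulk libraries fewer cells of a kind and less RNA per cell cannot be told apart.

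Hspa1a (chr17:34969190-34972156, minus strand, a single exon) held 1989, 3598, 1333 and 2565 CPM in FosGFP+ and 9756, 11106, 6686 and 7995 CPM in FosGFP-. Hspa1b (chr17:34956436-34959238, minus strand, a single exon) held 4255, 9004, 3413 and 5435 CPM in FosGFP+ and 16871, 21700, 13040 and 16636 CPM in FosGFP-. For both genes the highest FosGFP+ library, replicate 2, stayed below the lowest FosGFP- library, replicate 3. The mean level of Hspa1a in FosGFP- was 3.75 times that in FosGFP+ and that of Hspa1b 3.09 times, differences that all 18 alternative settings called, with log2 fold changes from -2.52 to -1.66 for Hspa1a and from -2.25 to -1.40 for Hspa1b. In the authors' deposited table, turned to the same direction, Hspa1a had -1.65 ± 0.28 (adjusted p = 1.2e-07) and Hspa1b -1.39 ± 0.28 (adjusted p = 1.44e-05).

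The 2 inducible HSP70 genes are near-copies, and their values are not independent. Of all 50-base stretches of Hspa1a's transcripts, 58.8% also occur in Hspa1b, and of those of Hspa1b 62.3% occur in Hspa1a. Reads that align to more than one place were set aside in the deposited tables (28.75% to 38.44% of reads per library), so a read that fits both genes equally was counted for neither. The ratio of Hspa1b to Hspa1a per kb was 2.24 to 2.71 in FosGFP+ and 1.83 to 2.20 in FosGFP-, close ranges that do not overlap. Hspa1a also shares 564 exonic bases with Gm20481 on the opposite strand, which an unstranded library cannot separate.

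Dnajb1 (chr8:83608193-83612653, plus strand), the J-domain protein that delivers substrate to HSP70, held 4232, 7163, 2575 and 4927 CPM in FosGFP+ and 10256, 11900, 7310 and 7650 CPM in FosGFP-. The groups did not overlap, though FosGFP+ replicate 2 came close to FosGFP- replicate 3. The log2 fold change was -0.97 ± 0.26 SE (adjusted p = 0.0212, edgeR quasi-likelihood test), with a range of adjusted p from 4.31e-04 to 0.0860 over 18 alternative settings. The call was lost without FosGFP+ replicate 1, 3 or 4 and without FosGFP- replicate 1 or 2, when the fold change was no closer to 0 than -0.72. The authors' deposited table lists Dnajb1 at -0.79 ± 0.28 (adjusted p = 0.0302), and Hspa1a, Hspa1b and Dnajb1 are the members among its 3422 rows.

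**Figure D2:**
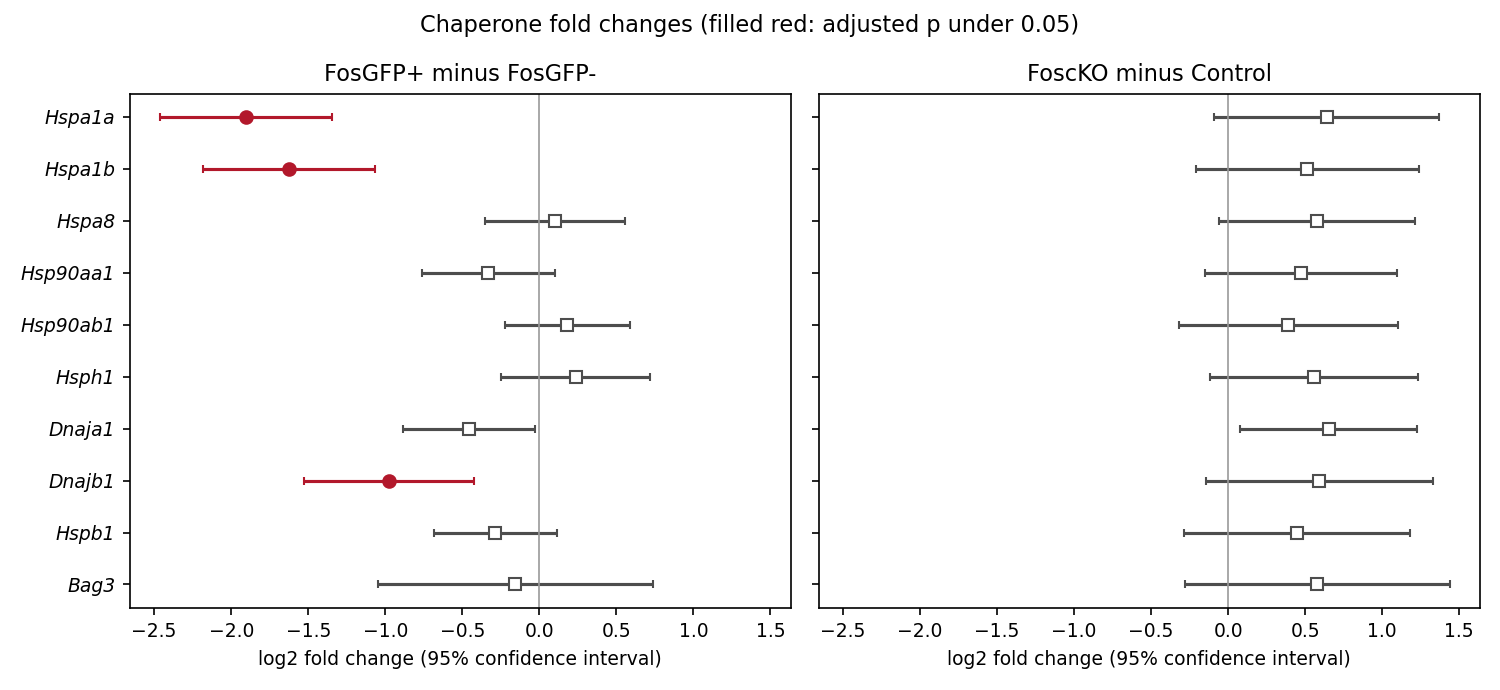
Log2 fold change of each member with its 95% confidence interval (horizontal axis) in FosGFP+ minus FosGFP- (left) and FoscKO minus Control (right), with filled red circles for an adjusted p under 0.05 and open squares otherwise. Hspa1a, Hspa1b and Dnajb1 are the filled points on the left at -1.91, -1.63 and -0.97, and the 10 open points on the right lie between 0.39 and 0.65.

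The constitutive HSP70 was not called with TMM over all genes. Hspa8 (chr9:40800984-40810087, plus strand), which encodes HSC70, held 2099, 2617, 1162 and 1926 CPM in FosGFP+ and 1917, 2073, 1573 and 1712 CPM in FosGFP-. The FosGFP+ libraries lay on both sides of the whole FosGFP- range, and the log2 fold change of 0.10 had a 95% interval from -0.35 to 0.56. Hsph1 (chr5:149614287-149636376, minus strand), the HSP110 that releases nucleotide from HSP70, ranged from 3148 to 6676 CPM in FosGFP+ and from 3102 to 4928 CPM in FosGFP- (log2 fold change 0.23, interval -0.25 to 0.72). The sign of both values depended on the scaling: with total counts Hspa8 had -0.31 and Hsph1 -0.17. With TMM from genes of at least 50 CPM, Hspa8 was called lower in FosGFP+ (-0.51, adjusted p = 0.0432, edgeR quasi-likelihood test).

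Ratios within a library are free of any scaling factor. Per kb, Hspa1a and Hspa1b together stood to Hspa8 as 2.50, 4.05, 3.44 and 3.49 in the FosGFP+ libraries and as 11.6, 13.3, 10.5 and 12.1 in the FosGFP- libraries. The highest FosGFP+ ratio was under the lowest FosGFP- ratio by a wide margin. In the second dataset the ratio was 6.93, 6.84 and 7.32 in FoscKO and 6.60, 6.74 and 7.94 in Control, overlapping ranges that lay between those of the first dataset. The mice of the 2 datasets differed in age and the tables were counted apart, so this last order is a description across datasets. The ratio was chosen after the values of its parts were known and carries no test.

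**Figure D3:**
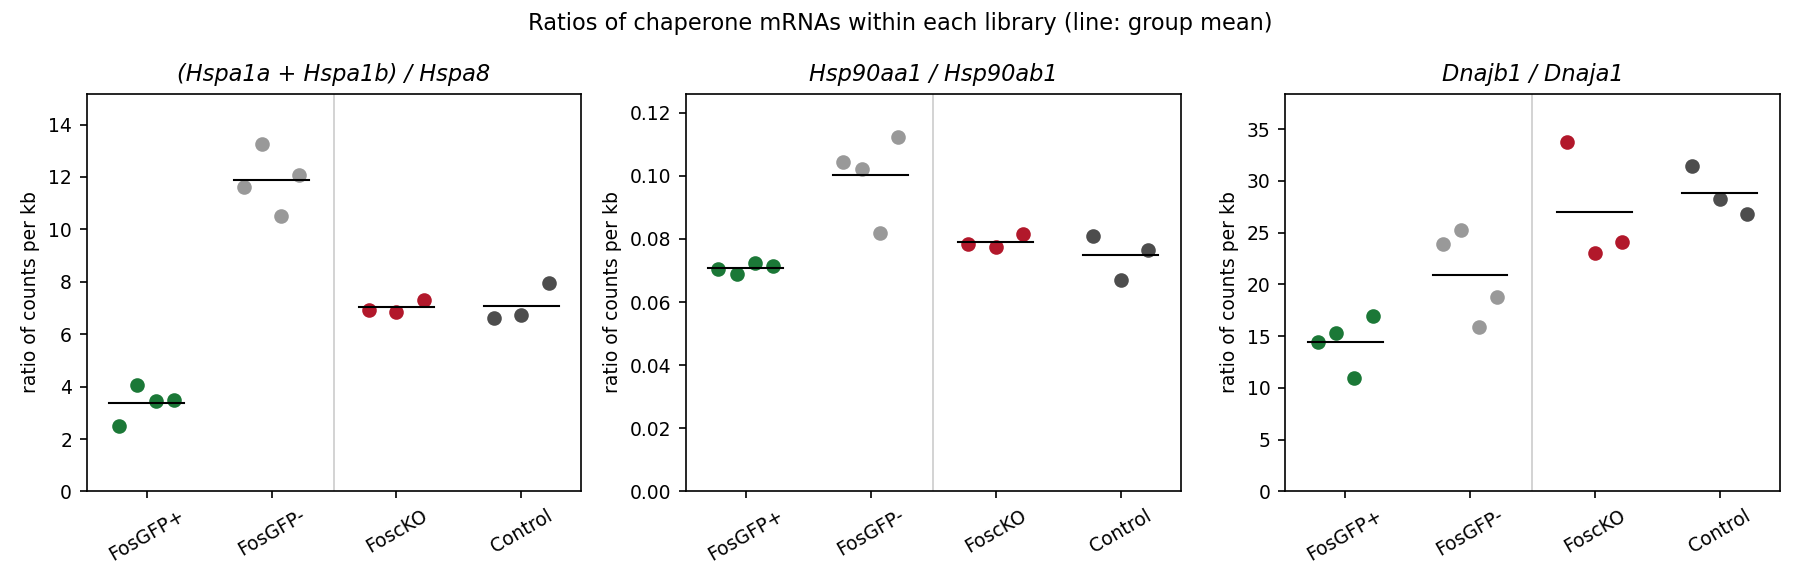
Ratios of counts per kb within each library (vertical axes from 0) for inducible to constitutive HSP70, Hsp90aa1 to Hsp90ab1 and Dnajb1 to Dnaja1, with points for libraries and lines for group means. The left panel shows FosGFP+ at 2.50 to 4.05, FosGFP- at 10.5 to 13.3 and both groups of the second dataset between 6.60 and 7.94.

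The HSP90 pair showed smaller differences. Hsp90ab1 (chr17:45567775-45573271, minus strand), the constitutive beta form, held 5972, 8473, 4514 and 6708 CPM in FosGFP+ and 5728, 6435, 5058 and 5420 CPM in FosGFP- (log2 fold change 0.18, interval -0.22 to 0.59). Hsp90aa1 (chr12:110690605-110702728, minus strand), the inducible alpha form, held 547, 762, 425 and 625 CPM in FosGFP+ and 779, 856, 540 and 793 CPM in FosGFP- (-0.33, interval -0.76 to 0.10). Neither passed the test with TMM over all genes and both overlapped between groups. With total counts Hsp90aa1 was called lower (-0.75, adjusted p = 0.0138, edgeR quasi-likelihood test), and with TMM from genes of at least 50 CPM both were, Hsp90aa1 at -0.95 (adjusted p = 0.00408) and Hsp90ab1 at -0.43 (adjusted p = 0.0467). Within libraries, the ratio of alpha to beta per kb was 0.069 to 0.072 in FosGFP+ and 0.082 to 0.112 in FosGFP- without overlap. In FoscKO it was 0.077 to 0.082 and in Control 0.067 to 0.081. Of the 50-base stretches of Hsp90aa1, 41.8% also occur in the pseudogene Gm12346, whose own count was at most 1.80% of that of Hsp90aa1, so reads that fit both equally are missing from the level of Hsp90aa1.

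The ratio of Dnajb1 to Dnaja1 per kb, by contrast, overlapped between the groups, at 11.0 to 17.0 in FosGFP+ and 15.8 to 25.2 in FosGFP-, and at 23.1 to 33.8 in FoscKO and 26.8 to 31.5 in Control. Dnaja1 (chr4:40722150-40737149, plus strand), another J-domain partner of HSP70, held 551, 879, 441 and 544 CPM in FosGFP+ and 804, 885, 866 and 765 CPM in FosGFP-. Replicate 2 of FosGFP+ lay within the FosGFP- range and the other 3 lay below it, and the log2 fold change of -0.46 missed the threshold (adjusted p = 0.159, edgeR quasi-likelihood test). Dnaja1 was called lower without that library (-0.67, adjusted p = 0.0314, edgeR), under scaling by total counts (-0.87, adjusted p = 0.00377), under TMM from genes of at least 50 CPM (-1.06, adjusted p = 9.40e-04) and with the even background subtracted (-0.72, adjusted p = 0.0278). Hspb1 (chr5:135887919-135889563, plus strand), the small heat shock protein HSP25, ranged from 878 to 1465 CPM in FosGFP+ and from 1287 to 1561 CPM in FosGFP- (-0.29, interval -0.69 to 0.11). Scaled by total counts, Hspb1 was called lower (-0.71, adjusted p = 0.0144, edgeR), as it was under TMM restricted to genes of at least 50 CPM (-0.90, adjusted p = 0.00402). Bag3 (chr7:128523616-128546981, plus strand), which couples HSP70 to selective autophagy, varied most within groups, from 583 to 2151 CPM in FosGFP+ and from 497 to 2264 CPM in FosGFP-, and its interval of -1.05 to 0.74 allows a difference in either direction.

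Within FosGFP+, replicate 2 was the highest library and replicate 3 the lowest for 9 of the 10 members, the exception being Hspb1. Replicate 2 also had the largest share of reads in genes of that group (23.24%) and replicate 3 the smallest (17.02%), and the part of this in the levels was not tested. Over the 14 libraries, after each group's mean was taken from log2(CPM + 1), the 45 pairs of members had Pearson correlations from 0.07 (Hspb1 with Bag3) to 0.98 (Hspa1a with Dnajb1), with a median of 0.81. The points share library depth and scaling, so the values describe these libraries.

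Scaling sets how many members count as lower. Against TMM over all genes tested, total counts moved the median of all genes by -0.40 and TMM from genes of at least 50 CPM by -0.58 on the log2 scale. With total counts 6 of the 10 members were called lower: Hspa1a, Hspa1b, Dnajb1, Hsp90aa1, Dnaja1 and Hspb1. With TMM from genes of at least 50 CPM there were 8, these and Hspa8 and Hsp90ab1. Calls of lower level grew over all 20698 genes tested too. They went from 383 genes to 2243 with total counts and to 5252 with TMM from genes of at least 50 CPM. Hspa1a, Hspa1b and Dnajb1 were called lower under all 5 scalings plotted, and Hspa8, Hsp90ab1 and Hsph1 changed sign between them.

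**Figure D4:**
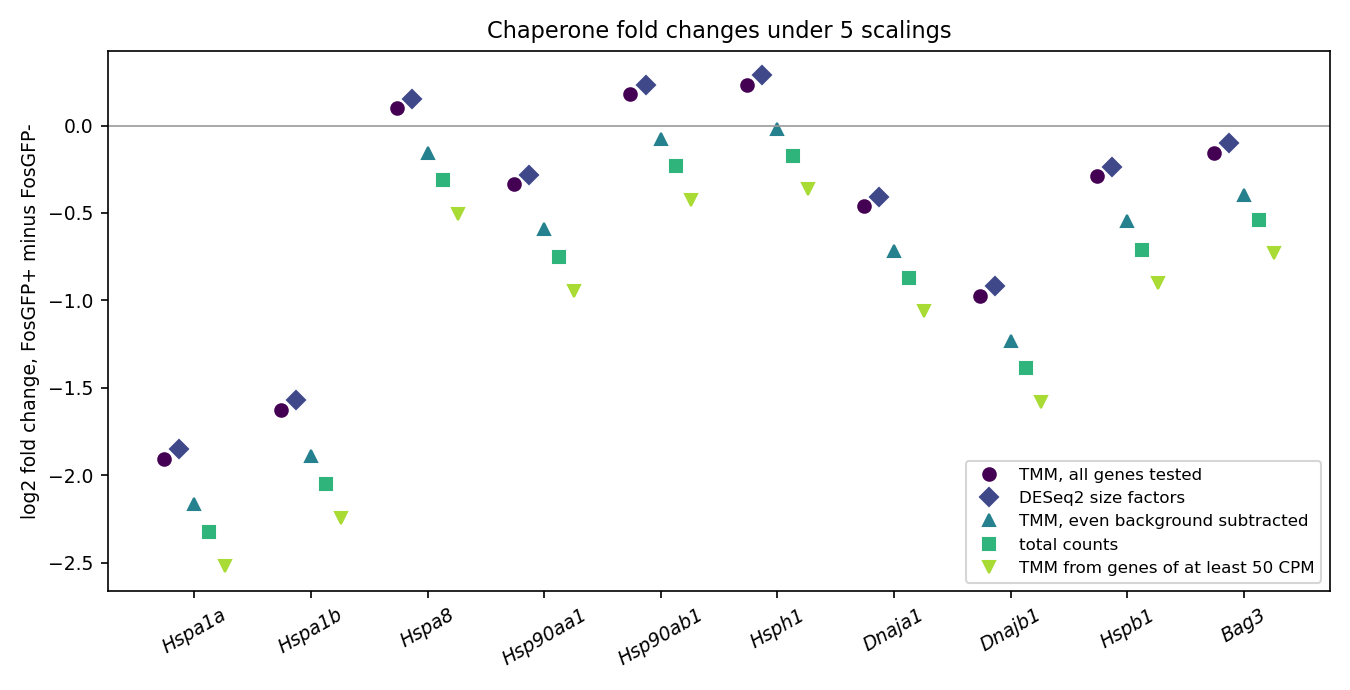
Log2 fold change of each member in FosGFP+ minus FosGFP- (vertical axis) under 5 ways of scaling the libraries (symbols). The points of a gene shift together from TMM over all genes (0.10 for Hspa8, -1.91 for Hspa1a) to TMM from genes of at least 50 CPM (-0.51 for Hspa8, -2.52 for Hspa1a).

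The comparison of FoscKO with Control set libraries labelled for a deletion of Fos beside their controls. No member passed the test: 0 of 10 were called in either direction by edgeR's quasi-likelihood test, where 0% of 21885 genes were called higher and 0% lower. At an unadjusted p under 0.05 there were 1208 genes, 1 of them a member, Dnaja1, and over all genes DESeq2 called 59 higher and 32 lower and limma-voom 4 and 6, with no member in either. All 10 members had a positive log2 fold change, from 0.39 for Hsp90ab1 to 0.65 for Dnaja1, with a median of 0.57, beside -0.04 over all genes tested and 0.24 over the 3869 genes of at least 50 CPM. The sign was positive for each member under all 16 alternative settings. Values below 0 were found for 11516 of the 21885 genes tested but for only 821 of the 3869 genes of at least 50 CPM. A positive sign was therefore the usual one among genes of at least 50 CPM. The members' mean levels in Control, from 450 CPM for Dnaja1 to 8651 CPM for Hspa1b, lie well above that limit, and genes of matched level were not compared. The members also varied together (median correlation 0.81), so their signs are not separate observations.

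Dnaja1 came nearest to a difference, with 788, 612 and 723 CPM in FoscKO and 380, 439 and 530 CPM in Control. Its lowest FoscKO library was above its highest Control library (log2 fold change 0.65 ± 0.27 SE, adjusted p = 0.857, edgeR quasi-likelihood test). Over the alternative settings, which include other tests, its adjusted p was 0.255 or higher. Hspa8 held 2935, 1846 and 2101 CPM in FoscKO and 1466, 1460 and 1682 CPM in Control, and Hsph1 6360, 3995 and 4533 CPM against 3179, 3135 and 3808 CPM. For these 3 members the groups did not overlap, with FoscKO higher, as was so for 5.75% of all genes tested and for 568 of the 3869 genes of at least 50 CPM.

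The inducible members overlapped between FoscKO and Control. Hspa1a held 9506, 4921 and 6233 CPM in FoscKO and 4200, 3836 and 5232 CPM in Control (log2 fold change 0.64, 95% interval -0.09 to 1.37). Hspa1b held 14829, 10131 and 12119 CPM against 7362, 7893 and 10699 CPM (0.51, interval -0.21 to 1.24). Dnajb1 held 14195, 7522 and 9292 CPM against 6373, 6616 and 7578 CPM (0.59, interval -0.14 to 1.33). In each case FoscKO replicate 1 was above the rest and 1 FoscKO library lay within the Control range.

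FoscKO replicate 1 was the highest of the 6 libraries for all 10 members. It was also the library with the largest share of reads in genes, 30.18%, and the highest Fos, 8443 CPM. Without it the members' median log2 fold change was 0.32 in place of 0.57, and the single values ran down to 0.07 for Hspb1. Hspb1 held 1823, 749 and 1154 CPM in FoscKO and 1064, 693 and 973 CPM in Control, Hsp90aa1 989, 540 and 675 CPM against 588, 476 and 526 CPM, and Hsp90ab1 9700, 5354 and 6361 CPM against 5588, 5447 and 5286 CPM. Bag3 again spread widely, with 2845, 1567 and 1433 CPM in FoscKO and 613, 1482 and 1817 CPM in Control. Summed markers of mature muscle fibre were 342 to 1406 CPM in FoscKO and 1190 to 2422 CPM in Control, those of smooth muscle and pericytes 371 to 1004 CPM and 197 to 464 CPM, and their part in these values was not tested. The smooth muscle sum was carried by Acta2 (723 against 291 CPM). Pdgfrb was also above 0 (10.5 against 6.96 CPM, log2 fold change 0.59), while Rgs5 (-1.35), Cspg4 (-0.58) and Myh11 (-0.13) had values below 0. None of these markers was called.

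The intervals show the range that 3 libraries a group allow. For the 10 members the upper bounds of the 95% intervals lay between 1.09 for Hsp90aa1 and 1.44 for Bag3, and the lower bounds between -0.32 for Hsp90ab1 and 0.08 for Dnaja1. The fold change of -1.91 that Hspa1a showed in FosGFP+ lies outside the interval of Hspa1a in FoscKO. The 2 contrasts are unlike, a sort by reporter and a labelled deletion, so their fold changes need not match. The 2 datasets share no library, and the difference between their fold changes was not tested.

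A wider list of 52 related chaperone genes in 8 groups set the members in their pathway, and 49 were tested in each dataset. In FosGFP+ 17 were called higher and 1 lower, with a median log2 fold change of 0.46 beside 0.57 over genes of at least 50 CPM. The 17 are 34.7% of the 49, where 10.3% of all genes tested and 41.9% of genes of at least 50 CPM were called higher. All 8 subunits of the chaperonin TRiC, the ring that folds actin and tubulin, rose in FosGFP+, from 0.71 for Cct4 to 1.19 for Tcp1. Tcp1 had 315 ± 56.0 CPM in FosGFP+ and 138 ± 19.2 in FosGFP- (SD, n = 4), and Cct3 738 ± 55.3 and 354 ± 57.0. All 8 stayed above 0 under every scaling, with 4 called by total counts and 3 by TMM from genes of at least 50 CPM (Tcp1, Cct3 and Cct5).

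Among other HSP70 and HSP110 genes 2 of 6 rose, among other J-domain proteins 1 of 7 and among HSP70 cochaperones 1 of 7. Beside these counts and that of the HSP90 cochaperones below, 10.3% of all genes tested were called higher. Of genes of at least 50 CPM 41.9% were, with a median log2 fold change of 0.57, so such rises were common at that abundance. Hspa4, an HSP110 relative of Hsph1, had 303 ± 39.4 CPM in FosGFP+ and 156 ± 9.10 in FosGFP- (log2 fold change 0.96), Hspa4l had 0.75, the J-domain gene Dnaja2 0.99 and the cochaperone gene Bag5 1.06. Values in the opposite direction that did not pass included those of the J-domain gene Dnajb4 (331 against 534 CPM, log2 fold change -0.69, adjusted p = 0.0525, edgeR) and of Hspa1l, another HSP70 gene (1.57 against 4.25 CPM, -1.40, adjusted p = 0.161). The others in these groups were Hspa12a (21.9 against 34.6 CPM, -0.66), Bag4 (-0.27) and Dnajc7 (-0.064). Dnajb4 and Hspa12a were called lower with total counts, and all of these but Bag4 with TMM from genes of at least 50 CPM. Of the 9 HSP90 cochaperones 3 rose: Ppid (0.95), Ptges3 (0.70), which encodes p23, and Stip1 (0.60), which encodes the HOP adaptor between HSP70 and HSP90. With TMM from genes of at least 50 CPM, Dnaja2 alone of these 7 was still called, with the signs unchanged. The calls on Stip1 and Ptges3 were each lost in 8 of 18 settings and that on Hspa4l in 6, among them total counts and the even background subtracted. All 3 calls were lost without FosGFP+ replicate 2 or FosGFP- replicate 1 or 2, those on Stip1 and Ptges3 also without FosGFP+ replicate 4, and that on Ptges3 without FosGFP- replicate 4. No small heat shock protein among the 5 tested was called.

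Hsf1, the gene of the heat shock regulator, had 144 ± 24.8 CPM in FosGFP+ and 85.9 ± 22.9 in FosGFP- (SD, n = 4). Its log2 fold change was 0.75 ± 0.22 SE (adjusted p = 0.0341, edgeR quasi-likelihood test). Over 18 alternative settings, which include other tests, its adjusted p ran from 0.00763 (DESeq2 Wald test) to 0.443. The call on Hsf1 was lost in 9 of the 18 settings, among them total counts and 6 of the 8 that leave out a library: FosGFP+ replicate 1, 2 or 4, or FosGFP- replicate 2, 3 or 4. Hsf2, at 12.8 ± 1.76 CPM and 13.1 ± 4.80 CPM, was near 0 (-0.04) and its sign turned with the setting.

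The mitochondrial chaperones split. Hspa9, the mitochondrial HSP70, rose with 841 ± 48.8 CPM in FosGFP+ and 376 ± 41.7 in FosGFP- (1.16 ± 0.16 SE, adjusted p = 2.91e-04, edgeR quasi-likelihood test) and was called under all 18 alternative settings. Hspe1, the HSP10 lid of the HSP60 ring, fell by 0.62 on the log2 scale (adjusted p = 0.0472, range 5.44e-04 to 0.171). Its call was lost in 10 settings, among them leaving out any library other than FosGFP+ replicate 2. Its partner Hspd1 had 0.16 and did not pass.

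**Figure D5:**
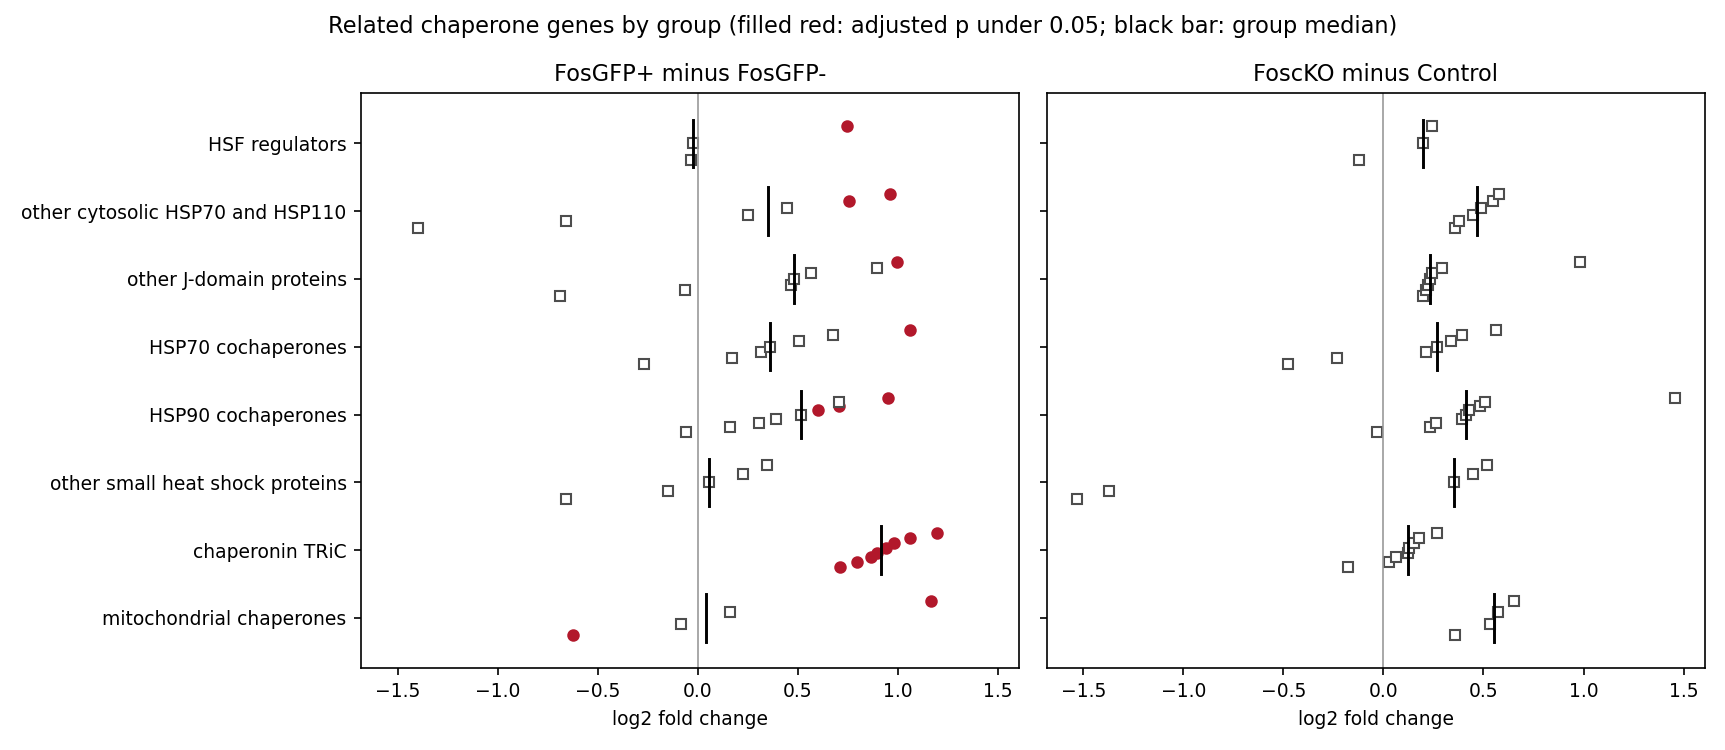
Log2 fold change (horizontal axis) of the 49 tested related genes by group, in FosGFP+ minus FosGFP- (left) and FoscKO minus Control (right), with filled red circles for an adjusted p under 0.05, open squares otherwise and black bars for group medians. The TRiC row on the left is filled throughout, from 0.71 to 1.19, and no point on the right is filled.

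In FoscKO against Control 0 of the 49 related genes were called, and 8 had an unadjusted p under 0.05. Their median was 0.27, beside 0.24 over genes of at least 50 CPM. The 8 TRiC subunits lay between -0.18 and 0.27. DESeq2 called 1 related gene, the J-domain gene Dnaja4 (1.03, adjusted p = 0.0490), and edgeR without a filter on low counts called 1, Fkbp5 (1.49, adjusted p = 0.00218), the HSP90 cochaperone known as a glucocorticoid target. Fkbp5 had 94.0 ± 72.5 CPM in FoscKO and 34.3 ± 3.39 in Control (SD, n = 3), with a range of 51.2 to 178 CPM in FoscKO. Without FoscKO replicate 1 no HSP90 cochaperone had a log2 fold change above 0.61. Both are outside the rule for named genes and were picked for these calls.

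The genes whose pattern was most like that of Hspa1a, by Pearson correlation over the 14 libraries after group means were removed and among 7073 genes of at least 20 CPM, were, outside the 10 members, Cyp27a1 (r = 0.96), Ccdc47 (0.92), Mcoln1 (0.90), Fdx1 (0.90) and Hspb8 (0.90). For Hspa8 they were Ccdc47 (0.97), Mcoln1 (0.94), Sat1 (0.94), Hspb8 (0.92) and Cnrip1 (0.91). The member Dnajb1 was higher than any of these for Hspa1a (0.98), and it had 0.96 with Hspa8. Ccdc47, Mcoln1 and Hspb8 were on both lists. Their mean levels were between 41.4 CPM (Mcoln1 in FosGFP+) and 130 CPM (Hspb8 in FoscKO), far below those of the members.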

How the data were processed

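Raw counts per Ensembl gene were deposited by the authors in 2 tables, 1 per dataset, of 49671 genes each, with 5 HTSeq lines that name no gene and were left out. The share of reads in genes was 10.3% to 30.18% per library. GRCm38, HTSeq 0.6.1, STAR 2.5.0c, limma and DESeq2 1.20.0 are named, without a role, in the submitters' processing notes. SMART-Seq v4, which keeps no strand, and Nextera XT made the libraries, per the labels' protocols. The authors' deposited tables of their comparisons, 1 per dataset, give log2 fold changes and p-values as reference over test, and were turned round here. In them 14 columns of per-library values have names found in no label and were left out. Symbols and positions came from GENCODE M21 (GRCm38; 49412 identifiers matched) and start-site windows from RefSeq (GRCm38.p6).

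Each dataset was fitted apart, on all genes kept by filterByExpr, with TMM scaling and the robust quasi-likelihood F-test of edgeR 4.0.16 (R 4.3.3), two-sided and without covariates. Benjamini-Hochberg adjusted p under 0.05 over all genes tested was called. SE is the fold change over the root of F, and intervals use the t distribution at 95%. Levels per kb use the longest principal coding transcript. On simulated counts for the first comparison (20698 genes), the test recovered 100 of 100 genes with a 4-fold change and 69 of 100 with a 2-fold change, and called 14 unchanged genes. For the second (21885 genes) these were 100 of 100, 29 of 100 and 5. The changed genes had at least 50 CPM, equal numbers rose and fell, and the background did not differ between groups. In the first comparison itself 41.9% of such genes were called higher and 1.02% lower. Its even background, described below, was 6.53% to 10.8% of gene counts in FosGFP+ and 13.2% to 19.8% in FosGFP-. The simulated rates therefore hold for balanced changes only.

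The members and the lists of related genes and markers were chosen with earlier results of these data known. The text names the 10 members and Fos, related genes called in either comparison (up to 4 per group and comparison) with Hsf1 and Hsf2, and the 5 genes most like Hspa1a and Hspa8. Cct4, Hspd1, Dnaja4, Dnajb4, Dnajc7, Hspa1l, Hspa12a, Bag4, Fkbp5 and the markers given by name fall outside this rule. They were named after their values were seen. Alternatives were each library left out, a block for the replicate number, other tests (limma-voom of limma 3.58.1 and DESeq2 1.42.0), other scalings (total counts, DESeq2 size factors, TMM restricted to genes of at least 50 CPM, library sizes less the 20 most abundant genes), other filters (none, or 5 CPM) and counts less an even background. That background is the density of reads over the exons of 1745 receptor genes of smell and taste.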

Additional observations from a re-analysis of the deposited data

Results flagged for a closer look

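Hspb1 in FosGFP- replicate 4, at 1560.6 CPM, stood apart from the other 3 libraries of its group, at 1287 to 1314 CPM. Its gap to the nearest library, as a share of the group's range, was above the 95% limit of Dixon's test. This was 1 of 22 groups of 4 libraries looked at (10 members and Fos, in FosGFP+ and FosGFP-), and chance marks about 1 in 20.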

How the results depend on the processing

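Deviations of same-numbered libraries correlated at 0.12, 0.13, 0.06 and -0.02 in the first dataset and at 0.21, 0.04 and -0.08 in the second. With differently numbered libraries the highest values were -0.01, -0.02, 0.13 and 0.05 for FosGFP+ and -0.12, 0.18 and 0.12 for FoscKO. The same number was higher for replicates 1 and 2 of the first dataset and replicate 1 of the second only. These mixed values do not settle whether replicate numbers pair the libraries. With the replicate block 2002 genes were called higher and 278 lower in the first dataset, and 23 and 20 in the second, with 3 members called lower in the first as without it. With 3 members called lower in FosGFP+, total counts gave 6 and TMM from genes of at least 50 CPM gave 8. Over all 20698 genes tested, the numbers called lower under these 3 scalings were 383, 2243 and 5252. Those called higher were 2125, 1005 and 722. Of the related genes, 17 called higher became 9 with total counts, 5 with TMM from genes of at least 50 CPM and 11 with the even background subtracted. More than 17 were called higher with DESeq2 size factors, no filter, limma-voom, the DESeq2 test or the replicate block. The 1 called lower became 0 with DESeq2 size factors or no filter, 2 with the filter at 5 CPM, limma-voom or the background subtracted, 3 with total counts, 9 with TMM from genes of at least 50 CPM, and 0 to 2 with a library left out. In FoscKO the related genes called higher went from 0 to 1 without a filter and with the DESeq2 test.

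Signs turned in FosGFP+ with total counts, with TMM from genes of at least 50 CPM and with the background subtracted for Hspa8 (-0.31, -0.51 and -0.16), Hsp90ab1 (-0.23, -0.43 and -0.077) and Hsph1 (-0.17, -0.36 and -0.018). Leaving out a library moved Hspa8 between -0.044 and 0.33 and Bag3 between -0.54 and 0.23. Hsf2 in FosGFP+ turned to 0.012 with DESeq2 size factors, 0.011 with the DESeq2 test, 0.053 without a filter, 0.027 with limma-voom, 0.019 with the replicate block and 0.36 with the background subtracted, and ran from -0.22 to 0.19 with a library left out. In FoscKO, Fos turned to -0.28 with total counts, -0.27 under TMM from genes of at least 50 CPM, -0.091 with the filter at 5 CPM, -0.13 with limma-voom and with the replicate block, and -0.17 with the background subtracted, and ran from -0.56 (without FoscKO replicate 1) to 0.33 with a library left out. Hsf1 there turned to -0.048 with total counts and -0.042 under TMM from genes of at least 50 CPM, and Hsf2 to 0.091 with the background subtracted, with a range from -0.27 to 0.026 with a library left out. Apart from the changes of scaling, whose construction shifts all genes together, the cause was not tested.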
